A study of Mus musculus with 16 samples.

Results

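Cul4b, a cullin, was deleted in mouse small intestine, and the mRNA of 10 genes was followed there: the cullins, on which a class of ubiquitin ligases is assembled, and their core partners. They were taken by gene name: Cul4b and its paralog Cul4a, Ddb1, Rbx1 and Rnf7, the other canonical cullins Cul1, Cul2, Cul3 and Cul5, and Cand1. All 10 were found among the 52525 genes that 3 count tables share, and all 10 passed the filter on low counts in each experiment. RNA-seq was available for 16 libraries. Crypts, the epithelial pits that hold the intestinal stem cells, gave 4 WT and 4 KOIEC libraries. Organoids, crypts grown in Matrigel into small epithelial bodies, gave 2 WT and 2 KOIEC libraries, and a separate set gave 2 WT and 2 KOCAG libraries.

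All mice were on the C57BL/6 background, and Cul4b fn/Y marks males whose single, X-linked Cul4b copy can be cut out by Cre recombinase. KOIEC is pVillin-Cre; Cul4b fn/Y, in which the villin promoter drives Cre in the intestinal epithelium. KOCAG is CAG-CreERT2; Cul4b fn/Y, in which a widely active promoter drives a Cre that works after tamoxifen is given. The KOCAG organoids were sequenced after tamoxifen treatment, and the methods describe inducing Cre in the organoids. The WT control of the KOIEC mice was Cul4b fn/Y without the Cre. The presence of Cre and the loss of Cul4b thus cannot be told apart in KOIEC crypts and organoids. Whether the WT cultures of the KOCAG set carried CreERT2 or received the drug is not given in the sources used here, so exposure to active Cre and loss of Cul4b cannot be told apart there. The methods give an adult age range for most experiments with WT and KO mice, without tying an age to these libraries. The labels number the libraries without naming a mouse or culture. The methods call them biological replicates, and a supplementary table title gives KOIEC mice as N = 4. Whether each organoid library came from its own mouse or culture is not stated. The p-values measure the spread between these libraries, which may in part be technical.

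A cullin binds a RING protein at its C-terminal end, Rbx1 for most cullins and Rnf7 for Cul5, and this RING protein recruits the ubiquitin-conjugating enzyme. At its N-terminal end it binds an adaptor that carries the substrate receptor, and for both Cul4 paralogs that adaptor is Ddb1. The ligase is switched on when the ubiquitin-like protein Nedd8 is attached to the cullin, switched off when the COP9 signalosome removes it, and taken apart for receptor exchange by Cand1. Cul4a and Cul4b share the adaptor and the RING protein, so the comparison of KO with WT asks whether the paralog or the partners are made at another level when Cul4b is missing.

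Because the paralogs are alike, the sequence that they share decides how well reads can be told apart. A stretch around their longest identical run is shown here from the GENCODE M21 transcripts on GRCm38. The stretch lies in the coding sequence and runs over exons 18 and 19 of 20 in each gene. In Cul4a it spans chr8:13143072-13144299 on the plus strand and in Cul4b chrX:38537252-38539016 on the minus strand, both with the intron between the exons. Capitals mark the bases that differ.
Cul4a: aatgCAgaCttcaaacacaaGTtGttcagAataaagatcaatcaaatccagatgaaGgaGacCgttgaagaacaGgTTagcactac
Cul4b: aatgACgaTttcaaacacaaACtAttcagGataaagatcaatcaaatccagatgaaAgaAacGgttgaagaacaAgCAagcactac
The 86 bases differ at 13 positions, and the longest run without a difference is 26 bases. No other of the 45 pairs among the 10 members shares a longer run, and the next longest is 19 bases. Over the aligned coding sequences, 1639 of 2271 bases (72.2%) are identical between the paralogs.
Primers designed for Cul4b mRNA, read from a supplementary primer list, lie upstream of that stretch, in exons 13 and 15.
Cul4b forward primer, chrX:38544791-38544811: tattagttggcaagagtgcat
Cul4b reverse primer, chrX:38542090-38542110: ccagtaacccattgtcaggat
They bound a product of 218 bases, and neither shares more than 8 consecutive bases with Cul4a.

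Total counts per library ran from 7348191 to 16881395, so the floor of 3 counts stood at 0.173 to 0.417 CPM, the depth-scaled count that is used here with TMM factors. Counting error alone sets this floor. Marker genes fitted the labels: the 7 epithelial markers were counted in every experiment, while in organoids 9 of 11 immune and 9 of 10 stromal markers were below the filter on low counts, and Cd8a, Gzma and Gzmb were among those at 0 in every organoid library. In crypts, 8 libraries fell into 3 classes of mitochondrial ribosomal RNA (mt-Rnr1 plus mt-Rnr2). In the low class, 1 WT and 3 KOIEC libraries had 18.9 to 25.2 CPM, in the middle class 1 WT and 1 KOIEC library had 834 to 1078 CPM, and in the high class 2 WT libraries had 2840 to 2873 CPM. Cell type markers moved with genotype in crypts as well. Of the 10 stem cell markers 3 fell, and 1 of 7 epithelial markers rose, beside 6.96% of all tested genes called in crypts, while none of the enterocyte (10), Paneth cell (7), goblet cell (7) and stromal markers (3 of 10 tested) passed the test. The summed enterocyte markers ran from 2588 to 11294 CPM in WT and from 10516 to 20954 CPM in KOIEC crypts, and the summed Paneth cell markers from 11016 to 20584 and from 2086 to 19056 CPM. Goblet cell markers summed to 6053 to 8785 CPM in WT and 8086 to 12638 CPM in KOIEC crypts. Immune markers summed to 32.9 to 140 CPM in WT and 64.3 to 402 CPM in KOIEC crypts. For tuft cell markers the sums were 36.9 to 53.9 and 42.3 to 247 CPM, and for enteroendocrine markers 319 to 470 and 288 to 383 CPM. No immune, tuft cell or enteroendocrine marker was called in crypts. Stromal markers summed to 13.3 to 16.6 and 7.40 to 10.3 CPM, the one marker sum whose crypt groups did not overlap (p = 0.0286 by exact two-sided permutation, unadjusted for the 9 marker lists). In bulk RNA, fewer cells of a type and less RNA per cell cannot be told apart.

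Cul4b (ENSMUSG00000031095, chrX:38533274-38576196, minus strand), the deleted scaffold, was nearly lost from the KO libraries of all 3 experiments. In WT crypts it was counted at 31.7, 33.2, 38.3 and 32.3 CPM, and in KOIEC crypts at 1.69, 0.993, 0.848 and 2.21 CPM. In WT organoids of the KOIEC set it stood at 83.2 and 73.2 CPM and in their KOIEC counterparts at 1.69 and 1.76 CPM. In the KOCAG set the values were 72.9 and 70.1 CPM in WT and 3.34 and 5.19 CPM in KO organoids. The lowest WT library of each experiment thus lay far above its highest KO library, and every library matched its genotype label. The log2 fold change was −4.56 ± 0.25 (SE, 4 against 4 libraries, edgeR adjusted p = 1.686e-04) in crypts, −5.50 ± 0.22 (2 against 2, adjusted p = 0.0311) in KOIEC organoids and −4.02 ± 0.16 (2 against 2, adjusted p = 1.927e-06) in KOCAG organoids. The mean that remained was 4.23%, 2.20% and 5.97% of WT. In KOIEC organoids the call rested on both WT libraries, since the adjusted p was 0.451 without WT replicate 1 and 0.230 without WT replicate 2, with estimates of −5.40 and −5.60.

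These remaining counts were above the floor in every KO library, from 8 counts in one KOIEC crypt library to 54 counts in one KOCAG library. A gene total does not say which exons they came from. Among all tested genes, 6.96% passed an adjusted p of 0.05 in crypts, 0.00717% in KOIEC organoids and 31.5% in KOCAG organoids. In KOIEC organoids that share is 1 gene of 13938, Cul4b itself. In crypts it is 934 of 13427 genes, a count that ran from 2 to 2468 when 1 library was left out. Without the 2 WT libraries of the high mitochondrial class it was 1, and Cul4b was that gene.

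Cul4a (ENSMUSG00000031446, chr8:13105621-13147940, plus strand), the paralog that builds the same ligase, stayed near its WT level in each experiment. In crypts it was counted at 82.9, 91.9, 86.8 and 91.2 CPM in WT and at 90.5, 90.9, 93.7 and 80.7 CPM in KOIEC. In KOIEC organoids it was counted at 111 and 105 CPM in WT and at 112 and 110 CPM in KO. In the KOCAG set it stood at 122 and 116 CPM in WT and at 114 and 112 CPM in KO. WT and KO overlapped in the first and the second experiment, and in the KOCAG set both KO libraries were just below both WT libraries. The log2 fold change was 0.01 (95% interval −0.18 to 0.20, edgeR adjusted p = 0.934) in crypts, 0.04 (−0.33 to 0.41, adjusted p = 0.957) in KOIEC organoids and −0.08 (−0.25 to 0.10, adjusted p = 0.491) in KOCAG organoids. Non-overlapping groups are common in these designs: in the KOCAG set 34.2% of all tested genes were lower in both KO libraries than in both WT libraries.

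How large a rise in Cul4a would have replaced the lost Cul4b depends on the share of each paralog, which was compared per kb of the gene length deposited with the counts. In WT crypts Cul4b made up 38.8% ± 2.37 (SD, n = 4) of the Cul4a plus Cul4b mRNA, and in WT organoids 54.5% ± 1.23 (n = 2) in the KOIEC set and 49.9% ± 0.18 (n = 2) in the KOCAG set. These shares rest on the length used: with the longest protein-coding transcript they were 29.9%, 44.6% and 40.1%, so that Cul4b was the lesser paralog in each experiment. Full replacement per deposited length would have needed a log2 rise of Cul4a of 0.69 in crypts, 1.12 in KOIEC organoids and 0.95 in KOCAG organoids. Each of these values lies above the upper end of the interval of Cul4a in its experiment. At that upper end, and with the same lengths, Cul4a would have made up 24.5% of the lost Cul4b mRNA in crypts, 28.4% in KOIEC organoids and 7.62% in KOCAG organoids. With the length of the longest protein-coding transcript in place of the deposited length, the needed log2 rises were 0.49, 0.84 and 0.70, also above the intervals.

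The summed level of both paralogs was lower in every KO library than in every WT library of its experiment. Cul4b, the deleted gene, is part of this sum. With Cul4a near its WT level, a lower sum was fixed by the deletion, so its permutation p-values do not test a change of Cul4a. In crypts it was 21.1, 22.9, 23.4 and 22.6 CPM per kb in WT and 14.6, 14.4, 14.8 and 13.2 CPM per kb in KOIEC libraries, a mean of 63.3% of WT (p = 0.0286 by exact permutation of the libraries, two-sided, which cannot give less with 4 against 4). In KOIEC organoids the sum went from 38.8 and 35.2 to 17.9 and 17.6 CPM per kb, or 48.0% of WT. In KOCAG organoids it went from 37.8 and 36.2 to 18.6 and 18.8 CPM per kb, or 50.5% of WT. With 2 against 2 libraries the exact test cannot go below 0.333, which is the value of both organoid comparisons. By transcript length the sums in KO were 72.0%, 58.0% and 59.2% of WT in crypts, KOIEC organoids and KOCAG organoids. What remained was almost all Cul4a, since Cul4b made up, per deposited length, 2.64%, 2.50% and 5.88% of the sum in the KO libraries.

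**Figure D1:**
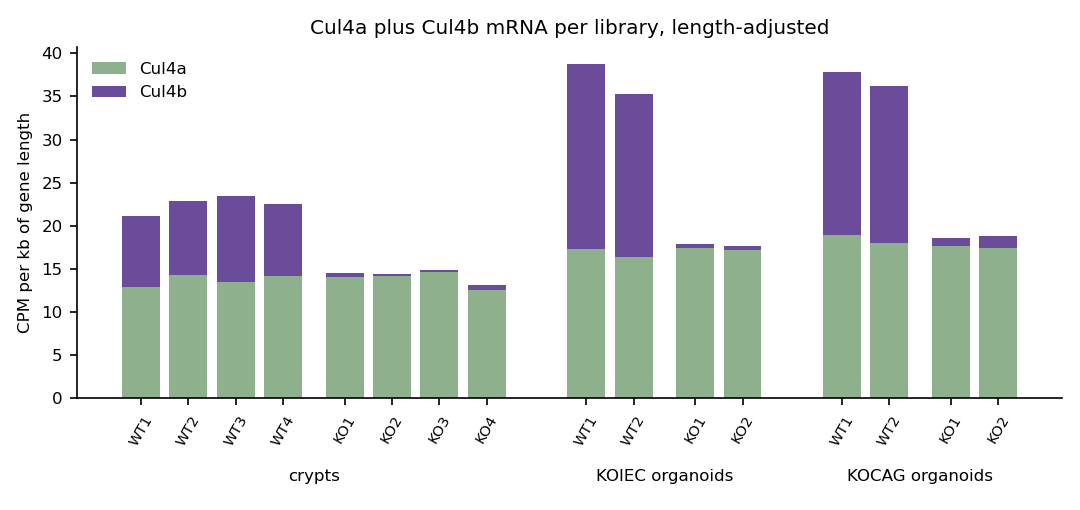
Length-adjusted Cul4a (green) and Cul4b (purple) mRNA in CPM per kb of gene length, stacked, with a bar for each library. The green part of the bars is of like height in WT and KO libraries of an experiment, and the KO bars reach 13.2 to 14.8 in crypts against 21.1 to 23.4 in WT.

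Taken per length over Cul1, Cul2, Cul3, Cul4a, Cul4b and Cul5, Cul4b was 10.5% ± 0.638 (SD, n = 4) of the canonical cullin mRNA in WT crypts, 17.7% ± 0.643 (n = 2) in WT organoids of the KOIEC set and 18.4% ± 0.368 (n = 2) in those of the KOCAG set. The total over these cullins was 83.0 ± 4.29 CPM per kb in WT and 79.5 ± 1.49 in KOIEC crypts (exact two-sided permutation p = 0.257). In KOIEC organoids it was 114 ± 6.18 in WT and 96.2 ± 7.98 CPM per kb in KO, and in KOCAG organoids 100.4 ± 0.753 and 85.3 ± 2.42 CPM per kb (exact permutation p = 0.333 in both, the smallest possible).

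Ddb1 (ENSMUSG00000024740, chr19:10605625-10629813, plus strand), the adaptor of both Cul4 paralogs, was the most abundant member per length in WT libraries of every experiment. Its values in crypts were 487, 518, 453 and 450 CPM in WT and 506, 525, 518 and 417 CPM in KOIEC. WT and KO values overlapped, and they also did so in both organoid sets, where all 8 libraries lay between 584 and 636 CPM. Its log2 fold change was 0.04 (95% interval −0.21 to 0.30, edgeR adjusted p = 0.813), 0.01 (−0.41 to 0.44, adjusted p = 0.988) and −0.01 (−0.20 to 0.18, adjusted p = 0.929) in crypts, KOIEC organoids and KOCAG organoids. Over 328 bases its exons overlap those of Tkfc on the opposite strand, and whether the counting used strand is not given in the sources used here.

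Of the RING subunits, Rnf7 (ENSMUSG00000051234, chr9:96470937-96478675, minus strand), the partner of Cul5, came closest to a change. In crypts it was counted at 52.4, 55.0, 61.6 and 48.0 CPM in WT and at 44.1, 44.8, 40.3 and 44.5 CPM in KOIEC. Every KOIEC crypt library lay below every WT library, as it did for 8.79% of all tested genes. The log2 fold change was −0.32 ± 0.10 (95% interval −0.54 to −0.10), and the edgeR adjusted p of 0.0646 missed the threshold. It missed it narrowly: DESeq2 (adjusted p = 0.0405), a fit of all 16 libraries (0.0384) and leaving out WT replicate 4 (0.0446) put Rnf7 past it. DESeq2 called 19.7% of the genes it gave an adjusted p in crypts, and the fit of all 16 libraries 10.6%. The fits that left out 1 crypt library called from 2 to 2468 genes. Before adjustment its p was 0.00811, as 31.9% of all tested genes had an unadjusted p under 0.05 in crypts. Within the classes of mitochondrial ribosomal RNA, the difference in mean log2 CPM was −0.28 in the low class (1 WT and 3 KOIEC libraries) and −0.11 in the middle class (1 and 1). The part of the enterocyte and Paneth cell markers in this difference was not tested.

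In organoids Rnf7 gave values of 58.7 and 56.5 CPM in WT and 50.5 and 42.5 CPM in KOIEC libraries, a log2 fold change of −0.31 (95% interval −0.75 to 0.14, edgeR adjusted p = 0.856). In the KOCAG set it gave 56.3 and 55.1 CPM in WT and 54.5 and 57.0 CPM in KO, a log2 fold change of 0.00 (−0.20 to 0.21, edgeR adjusted p = 0.978). The KOIEC organoid libraries were thus both below their WT counterparts, as for 19.4% of all tested genes, while the KOCAG and WT organoids overlapped. The effect of deletion on Rnf7 did not pass the test of a difference between any pair of experiments. For KOCAG organoids minus crypts the difference in log2 fold change was 0.31 (−0.02 to 0.64, edgeR adjusted p = 0.373), and for KOCAG minus KOIEC organoids it was 0.29 (−0.08 to 0.67, adjusted p = 0.585).

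Rbx1 (ENSMUSG00000022400, chr15:81466316-81476369, plus strand), the RING subunit that Cul4a and Cul4b use, had 71.6, 74.9, 75.1 and 76.5 CPM in WT crypts and 72.1, 58.4, 52.7 and 72.2 CPM in KOIEC crypts. Replicates 2 and 3 of KOIEC were below all WT libraries, and replicates 1 and 4 lay within the WT range. Its log2 fold change was −0.22 (95% interval −0.48 to 0.03, edgeR adjusted p = 0.205) in crypts, −0.11 (−0.51 to 0.28, adjusted p = 0.878) in KOIEC organoids and −0.03 (−0.24 to 0.18, adjusted p = 0.835) in KOCAG organoids. In the KOIEC organoid set Rbx1 had 69.7 and 69.3 CPM in WT and 67.4 and 61.1 CPM in KO. Both KO libraries were below WT there, as for 19.4% of all tested genes. Rbx1 has a near-identical copy, Rbx1-ps, with 324 of 327 aligned bases the same (99.1%) and a longest shared run of 162 bases, so some reads could have been split or dropped in counting. The copy itself was counted 0 to 10 times per library.

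**Figure D2:**
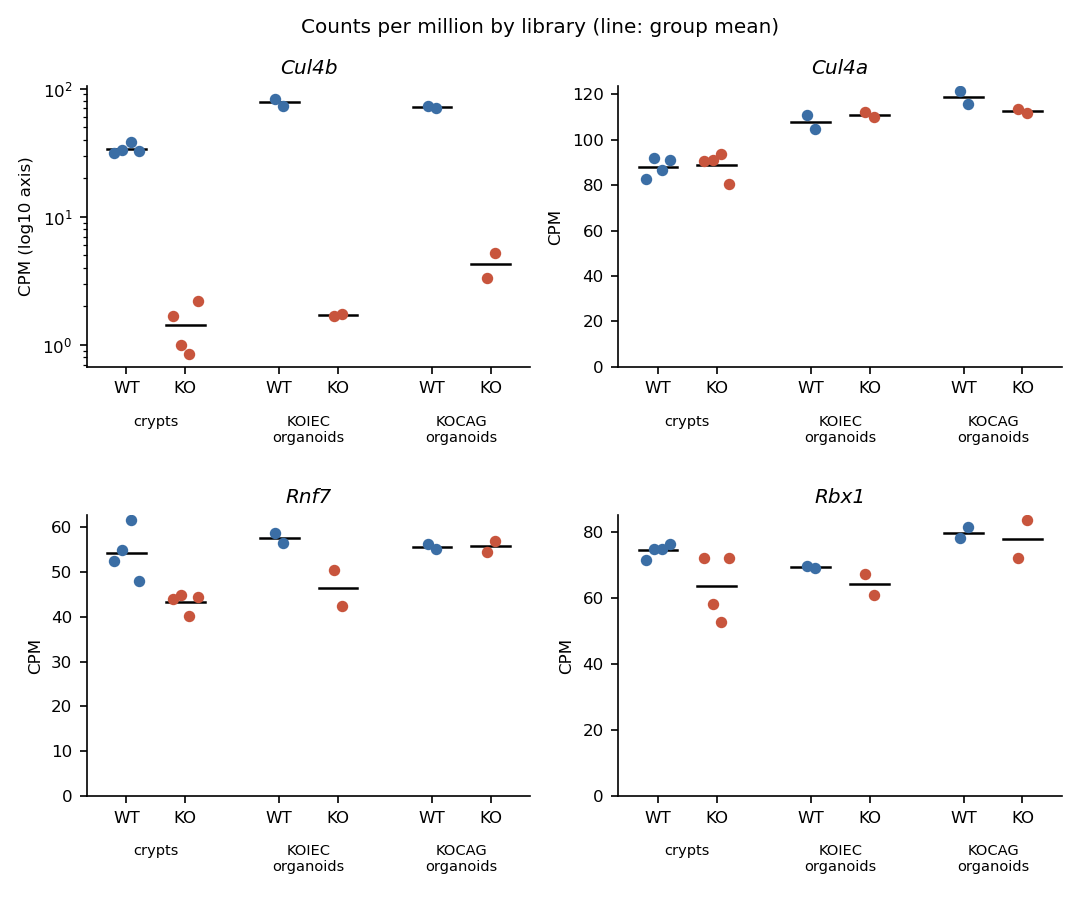
CPM of Cul4b (log10 axis), Cul4a, Rnf7 and Rbx1 (linear axes from 0) in each WT (blue) and KO (red) library of the 3 experiments, with a line at the group mean. Cul4b is far lower in every KO library, Cul4a lies at 80.7 to 93.7 CPM in KOIEC and 82.9 to 91.9 CPM in WT crypts, and the 4 KOIEC crypt values of Rnf7 (40.3 to 44.8 CPM) lie below the 4 WT values (48.0 to 61.6 CPM).

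The other cullins build ligases with other adaptors and substrates: Cul1 with Skp1, Cul2 and Cul5 with the elongins, and Cul3 with BTB-domain proteins. Cul3 (ENSMUSG00000004364, chr1:80264923-80340480, minus strand) was the one cullin with a group of KOIEC crypt libraries wholly above WT. It had 103, 102, 107 and 105 CPM in WT crypts and 111, 110, 113 and 117 CPM in KOIEC crypts, a pattern that 8.7% of all tested genes share. The size was small, a log2 fold change of 0.11 (95% interval −0.06 to 0.28, edgeR adjusted p = 0.329). In KOIEC organoids Cul3 had 134 and 132 CPM in WT and 142 and 148 CPM in KO, a log2 fold change of 0.13 (−0.25 to 0.50, edgeR adjusted p = 0.861). Both KO libraries were above WT there, as for 19.4% of all tested genes. In KOCAG organoids the log2 fold change was 0.03 (−0.16 to 0.23, edgeR adjusted p = 0.784).

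Cul1 (chr6:47453398-47526139), the scaffold of the SCF ligases, had log2 fold changes of 0.11, −0.06 and 0.10 in crypts, KOIEC organoids and KOCAG organoids. In the KOCAG set its KO libraries, at 126 and 121 CPM, were both above WT, at 113 and 117 CPM, as was the case for 35.5% of all tested genes. Cul2 (chr18:3382988-3436377) had log2 fold changes of 0.09, −0.02 and 0.11, and Cul5 (chr9:53614582-53670014) of 0.14, 0.13 and −0.03. None of these 9 values passed the test, with edgeR adjusted p from 0.339 to 0.986. Cul5, whose partner is Rnf7, was counted at 36.8 to 44.1 CPM in WT and 40.4 to 48.9 CPM in KOIEC crypts, so the groups overlapped. Exons of Cul1 and Cul5 overlap a transcript on the opposite strand over 192 and 110 bases.

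Cand1 (chr10:119199255-119240055), the exchange factor that binds cullins free of Nedd8, had the highest estimate of the 9 members in crypts. Its values were 107, 121, 109 and 104 CPM in WT and 141, 130, 124 and 105 CPM in KOIEC, so 3 KOIEC libraries were above all WT libraries and the fourth was within their range. The log2 fold change was 0.18 (95% interval −0.06 to 0.43, edgeR adjusted p = 0.271). In KOIEC and KOCAG organoids it was 0.00 (−0.46 to 0.46, edgeR adjusted p = 0.997) and 0.04 (−0.14 to 0.22, adjusted p = 0.759).

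Over all 9 members other than Cul4b and all 3 experiments, 0 of 27 edgeR tests passed an adjusted p of 0.05, and 1 of 27 had an unadjusted p under 0.05, Rnf7 in crypts. At that unadjusted threshold stood 31.9% of all tested genes in crypts, 4.66% in KOIEC organoids and 43% in KOCAG organoids. The share of all tested genes called was 6.96%, 0.00717% and 31.5%, so in KOIEC organoids a count of 0 was usual for any list, and in KOCAG organoids it stood beside the highest share. The precision of these values is given by their intervals. The highest upper end was a 1.51-fold rise, for Cul5 in KOIEC organoids, and the lowest lower end was 0.594 of WT, for Rnf7 in KOIEC organoids. All 27 intervals thus lay inside a 2-fold change in either direction. The median log2 fold change of the 9 members was 0.09 in crypts and 0.00 in both organoid sets, beside −0.01, −0.01 and 0.00 over all tested genes.

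**Figure D3:**
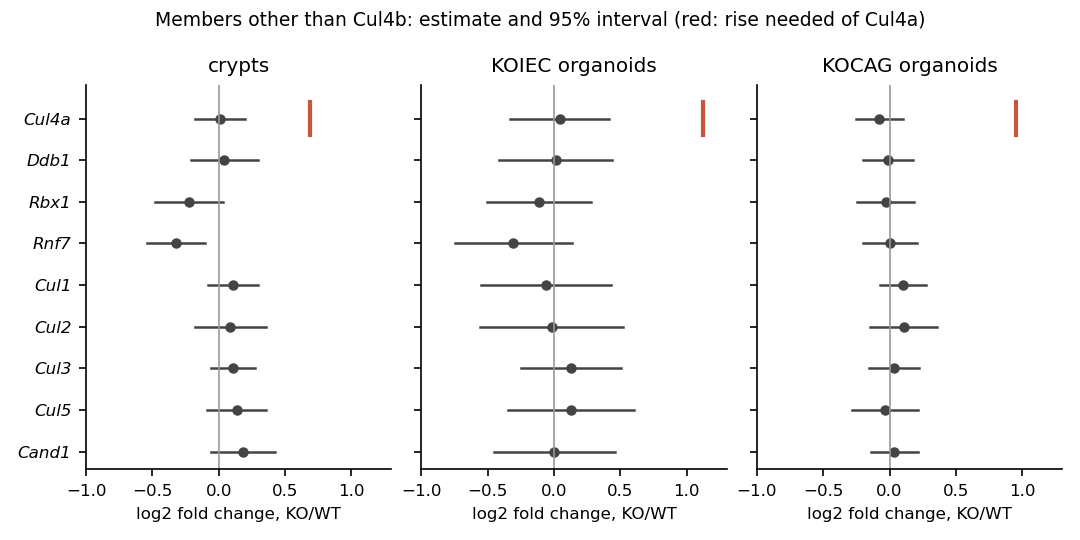
Log2 fold change of KO over WT with its 95% interval for the 9 members other than Cul4b, one panel for each experiment. The red bar beside Cul4a marks the rise that would have replaced the lost Cul4b per length (0.69, 1.12 and 0.95), which lies to the right of the Cul4a interval in each panel.

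The deletion effect itself was compared between experiments in a fit of all 16 libraries, which tested 15585 genes. None of the 10 members passed an edgeR adjusted p of 0.05 in any of the 3 pairs of experiments, where 0.00642%, 0.372% and 0.385% of all tested genes did (KOIEC organoids minus crypts, KOCAG organoids minus crypts and KOCAG minus KOIEC organoids). The nearest was Cul4b. Its loss was less deep in KOCAG than in KOIEC organoids by 1.44 on the log2 scale (95% interval 0.59 to 2.29), at an adjusted p of 0.175 with edgeR and 0.00946 with DESeq2, which called 1.9% of all genes for this pair. For Cul4a the differences were 0.04 (−0.23 to 0.31), −0.10 (−0.37 to 0.17) and −0.14 (−0.45 to 0.18), in the same order of pairs. Each pair was prepared as separate experiments, so the source of the cells and the preparation cannot be told apart.

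The levels of the members relative to one another were read per length in the WT libraries, as means in CPM per kb. In crypts the order was Ddb1 (115), Rbx1 (45.0), Rnf7 (40.8), Cul1 (23.3), Cul3 (21.4), Cul4a (13.8), Cand1 (13.2), Cul2 (10.7), Cul4b (8.75) and Cul5 (5.12). The WT ranges of Rbx1 and Rnf7 overlapped, as did those of Cul1 and Cul3, of Cul4a and Cand1, and of Cul2 and Cul4b. The order of Cul3 and Cul4a rests on the deposited length. With transcript lengths Cul4a stood at 23.7 in crypts, above Cul3. In WT organoids of the KOCAG set the order was the same down to Cul4a (18.5), which was followed by Cul4b (18.5, the ranges overlapping, but 21.3 against 31.9 for Cul4a with transcript lengths), Cand1 (16.4), Cul2 (9.69) and Cul5 (5.20). Both paralogs stood above Cul3 in the KOCAG set with transcript lengths. In WT organoids of the KOIEC set Cul4b (20.2) stood above Cul4a (16.8), an order that turned with transcript lengths (23.3 and 28.9). Rbx1 is left out of that last order, because its deposited length was 4551 bases in that table and 1655 bases in the other tables.

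The genes whose libraries varied most like Cul4a, after each group of libraries had been centred on its mean, were Farp2 (Pearson r = 0.91), Brwd3 (0.90) and Zfp318 (0.90), among 12477 genes over 16 libraries. Among the members the correlation with Cul4a was highest for Cul5 (0.66) and lowest for Cul4b (−0.57). The value for Cul4b takes in the KO libraries, where Cul4b had only 8 to 54 counts, so it is no measure of how the paralogs vary together. The libraries share their depth and makeup of cells, so these values are a description.

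The wider pathway was read from a list of 39 genes: cullin homologs, adaptors, the enzymes that attach and remove Nedd8, the exchange factor and inhibitor, and the ubiquitin-conjugating enzymes and partner ligases that work with cullins. In KOCAG organoids, 5 of 39 rose and 0 fell (edgeR, adjusted p under 0.05), beside 18.1% of all tested genes that rose and 13.4% that fell. The 5 were Dcun1d3, Cdc34, Ube2f, Dda1 and Nedd8, and none of them reached a 2-fold change. In the fit of all 16 libraries, which shares 1 estimate of the spread, Cdc34 and Ube2f were called and the other 3 were not, beside 3.06% of all genes called. In KOIEC organoids 0 of 39 were called, and 0 had an unadjusted p under 0.05. In crypts 0 of 39 were called, and 12 (beside 31.9% of all tested genes) had an unadjusted p under 0.05. DESeq2 called 4 of the 39 in crypts, where it called 19.7% of all genes: Anapc11, Elob and Ube2m lower by 0.41, 0.32 and 0.37 on the log2 scale, and Uba3 higher by 0.28.

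Of the genes that rose in KOCAG organoids, 3 belong to the attachment of Nedd8. Nedd8, the modifier itself, went from 86.3 and 93.9 CPM in WT to 118 and 110 CPM in KO, a log2 fold change of 0.34 ± 0.09 (SE, edgeR adjusted p = 0.0134). Ube2f, the conjugating enzyme that works with Rnf7 and Cul5, went from 22.6 and 22.4 to 33.2 and 37.9 CPM, a log2 fold change of 0.66 ± 0.13 (edgeR adjusted p = 0.00315). Dcun1d3, a co-factor of cullin neddylation, went from 14.6 and 14.5 to 27.8 and 22.6 CPM, a log2 fold change of 0.78 ± 0.16 (edgeR adjusted p = 0.00426). In each of them both KO libraries were above both WT libraries, as for 35.5% of all tested genes. The call of Nedd8 was lost with DESeq2 (adjusted p = 0.0543) and without WT replicate 1 (edgeR adjusted p = 0.205). The other 7 genes of this step, among them the heterodimer Nae1 and Uba3 that activates Nedd8, had log2 fold changes from 0.04 to 0.26 and were not called.

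Cdc34, a ubiquitin-conjugating enzyme that builds chains on the substrates of cullin ligases, had 62.0 and 77.7 CPM in WT and 115 and 113 CPM in KOCAG organoids. Its log2 fold change was 0.71 ± 0.11 (SE, edgeR adjusted p = 8.545e-04). In crypts the estimate had the other sign, −0.35 (edgeR adjusted p = 0.086), with 95.3, 99.0, 99.2 and 77.5 CPM in WT and 85.8, 72.5, 66.3 and 67.0 CPM in KOIEC. The difference between these experiments was 1.04 (95% interval 0.64 to 1.45, edgeR adjusted p = 0.0314), the one call among the 39 genes for this pair. Of the 16 fits that left out 1 library, 11 lost this call, with estimates from 0.89 to 1.21, and so did scaling by library size only (1.11, adjusted p = 0.070). KOCAG minus KOIEC organoids gave 0.98 for Cdc34, at an adjusted p of 0.0929 with edgeR and 0.00581 with DESeq2.

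Dda1, a small subunit that binds Ddb1 in Cul4 ligases, had 50.0 and 51.3 CPM in WT and 72.7 and 66.6 CPM in KOCAG organoids, a log2 fold change of 0.46 ± 0.09 (SE, edgeR adjusted p = 0.00481). In crypts it had log2 fold change −0.01, and in KOIEC organoids 0.02, neither of them called. The 11 genes of Nedd8 removal, the protease Senp8 and the COP9 signalosome subunits, gave no call in any experiment, with medians of −0.16, −0.13 and 0.03 in crypts, KOIEC organoids and KOCAG organoids. Markers of differentiated cells moved with the same KOCAG libraries: 9 of 10 enterocyte, 7 of 7 enteroendocrine, 7 of 7 goblet and 6 of 7 Paneth cell markers rose, and 5 of 10 stem cell markers fell while 1 rose. Of the 7 epithelial markers 4 rose and 1 fell. Over all tested genes 18.1% rose and 13.4% fell. Their part in the rise of these 5 genes was not tested.

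**Figure D4:**
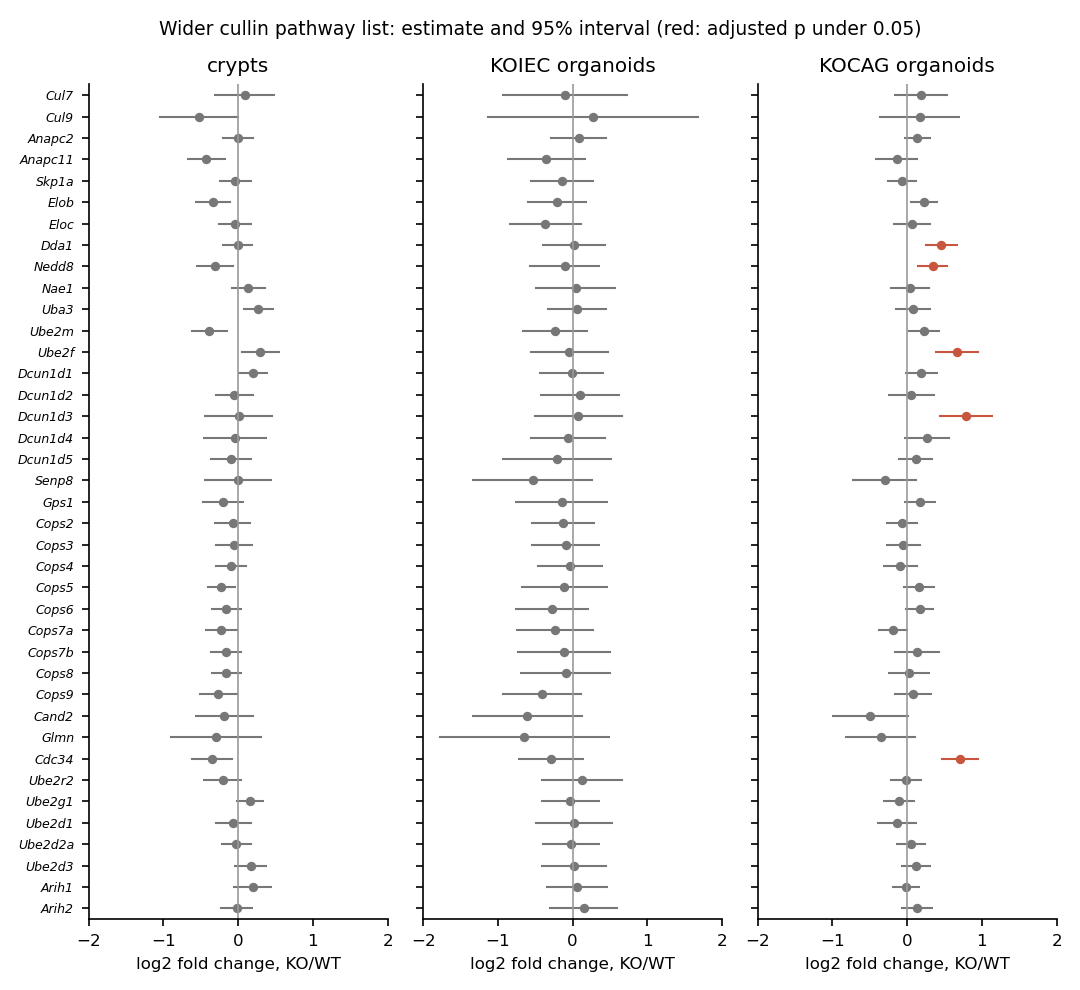
Log2 fold change of KO over WT with its 95% interval for the 39 genes of the wider pathway list, one panel for each experiment, red where the edgeR adjusted p is under 0.05. The 5 red genes, all to the right of 0, are in the panel of KOCAG organoids.

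The nearest protein-coding genes on either side of Cul4b were read as a check on the deleted locus. Lamp2, a lysosomal membrane protein, lies 76820 bases away towards lower coordinates, and Mcts1, a translation factor, 24382 bases away towards higher coordinates. In KOCAG organoids Lamp2 rose from 117 and 127 CPM to 162 and 158 CPM (log2 fold change 0.39 ± 0.08, SE, edgeR adjusted p = 0.00579). Mcts1 fell there from 39.5 and 42.0 CPM to 30.2 and 29.5 CPM (−0.45 ± 0.11, edgeR adjusted p = 0.0114). These calls stand beside 18.1% of all tested genes that rose and 13.4% that fell in KOCAG organoids. Without WT replicate 1 the adjusted p of Lamp2 was 0.128, and without WT replicate 2 that of Mcts1 was 0.0913. Both calls were also lost in the fit of all 16 libraries (0.267 and 0.0994), and that of Mcts1 with DESeq2 (0.059). In crypts neither was called, with log2 fold changes of 0.40 and −0.15, and in KOIEC organoids neither was called, with 0.14 and −0.45.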

How the data were processed

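The deposited files hold raw counts of reads per gene, which the authors made with HISAT2 2.0.5 and featureCounts 1.5.0-p3 according to the submitters' processing notes, in 1 table for each experiment and with no normalization. Genome build, annotation and strand setting are not given in the sources used here, and positions of 8, 9 and 8 of the 10 members (crypts, KOIEC organoids, KOCAG organoids) were the same as in GENCODE M21 on GRCm38. Libraries were grouped by their labels and none was left out.

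KO was compared with WT within each experiment with the quasi-likelihood test of edgeR 4.0.16 in R 4.3.3, after filterByExpr and TMM scaling, with Benjamini-Hochberg adjustment over 13427, 13938 and 13598 genes. A gene was called at an adjusted p under 0.05. CPM are counts over the TMM-scaled total of the tested genes, and values per kb use the deposited gene length. Intervals cover 95% and come from the standard error of the fit. Single sums were compared by exact two-sided permutation of libraries. Differences between experiments were tested in 1 fit of all 16 libraries. Replicates differed by more than counting noise. Scripts were tested on simulated counts.

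The members and lists were chosen with earlier results of these data known. All 10 members are described, the wider list by its called genes, and the likeness to Cul4a by the 3 highest correlations of log2 CPM (prior count 2). The alternatives were DESeq2 1.42.0, other scalings and filters, a replicate block, the mitochondrial classes and leaving out each library. The length of the longest protein-coding transcript, and the sum of the paralogs without the high class, were chosen after the data had been seen.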

Additional observations from a re-analysis of the deposited data

Results flagged for a closer look

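For Ddb1 in KOIEC crypts, replicate 4, at 417 CPM, stood apart from the other 3 libraries of its group, which lay between 506 and 525 CPM. For Rnf7 in KOIEC crypts, replicate 3 stood apart likewise, at 40.3 CPM against 44.1 to 44.8 CPM in the others. With 20 groups of 4 libraries looked at, chance alone sets a library apart by this measure in about 1 group in 20.

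The effect of deletion on Cdc34 differed between KOCAG organoids and crypts, by 1.04 on the log2 scale (edgeR adjusted p = 0.0314). The call was lost without WT replicate 1, 2 or 3 or KO replicate 2 or 3 of the crypts, without either WT library of the KOIEC organoid set, and without any one of the 4 libraries of the KOCAG set, at an adjusted p up to 0.290. Scaling by library size only also lost it (1.11, adjusted p = 0.070).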

How the results depend on the processing

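Over the alternatives, Cul4b was called in 36 of 38 values (log2 fold changes from −5.60 to −3.80), Cul4a in 0 of 39 (−0.12 to 0.09) and the 9 members other than Cul4b in 3 of 351 (−0.44 to 0.27), all 3 being Rnf7 in crypts. The cause of the changes below was not tested.

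Signs that turned belong to values near 0, none of them called. Scaling by library size only gave a log2 fold change of −0.0728 for Cul4a and −0.0423 for Ddb1 in crypts, of −0.0051 for Cul4a, −0.0374 for Ddb1 and −0.0354 for Cand1 in KOIEC organoids, and of −0.0259 for Rnf7 in KOCAG organoids. Without a low-count filter Cul4a was at −0.0062 in crypts and Cand1 at −6.769e-04 in KOIEC organoids. At least 10 counts in every library gave −0.0027 for Cand1 in KOIEC organoids and −0.0011 for Rnf7 in KOCAG organoids, and removed Cul4b from the crypt test. Rnf7 in KOCAG organoids was at −0.0019 with DESeq2 size factors, −0.0022 with DESeq2 and −0.0043 in the fit of all 16 libraries.

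In crypts, 1 of the 9 members (Rnf7) was called by DESeq2 and 1 (Rnf7) in the fit of all 16 libraries. Of the wider list, 1 gene (Anapc11) was called there at 10 counts or more, 4 by DESeq2 and 3 (Anapc11, Elob, Ube2m) in the fit of all 16. In KOCAG organoids the list gave 2 calls in the fit of all 16 and 0 at a 2-fold change. Between experiments, DESeq2 called 1 member, Cul4b. The summed Cul4 level ran over the length and scaling alternatives from 59.7% to 74.0% of WT in crypts, 46.4% to 60.6% in KOIEC organoids and 49.5% to 61.5% in KOCAG organoids, lowest with library size only and highest with no length correction. In crypts it was 65.2% of WT without the WT libraries of the high mitochondrial class (exact permutation p = 0.133, the smallest for 2 against 4).

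Leaving out 1 library at a time gave these ranges. In crypts Cul4a ran from −0.0084 to 0.0655. The summed Cul4 level ran from 62.0% to 64.9% of WT (exact permutation p = 0.0571 each, the smallest for 3 against 4). The members called ran from 0 to 1 (1 without WT replicate 4). The wider list called ran from 0 to 4 (4 without WT replicate 4, 3 without KO replicate 1). Calls among all genes ran from 2 to 2468 over these fits, so the counts cannot be read apart from that range. In KOIEC organoids Cul4b ran from −5.60 to −5.40, Cul4a from −0.0102 to 0.0859, Ddb1 from −0.0434 to 0.0607, Cul1 from −0.260 to 0.117, Cul2 from −0.258 to 0.184, Cul5 from −0.0067 to 0.259, and Cand1 from −0.173 to 0.158. In KOCAG organoids Rbx1 ran from −0.149 to 0.0494, Rnf7 from −0.0343 to 0.0161, Cul2 from −0.0267 to 0.193, Cul3 from −0.0464 to 0.0849, Cul5 from −0.134 to 0.0495, Cand1 from −0.0093 to 0.0575, and the wider list called from 4 to 8 (8 without KO replicate 2). The difference between KOIEC organoids and crypts ran from −0.0093 to 0.0853 for Cul4a and from −0.0419 to 0.191 for Cdc34. Where this left 1 library in a group, that library was assumed to vary like the others.

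Replicate numbers are shared by WT and KO, but the labels give them no common origin, and the correlations of like-numbered deviations were −0.04, 0.19, −0.40 and 0.43 in crypts, 0.34 in KOIEC and 0.07 in KOCAG organoids. The replicate block put Cand1 in KOIEC organoids at −0.0065 and changed no call of a member or a wider-list gene, while the crypt calls over all genes went from 934 to 4. The counts over all genes ran from 1 to 2490 in crypts, 1 to 223 in KOIEC organoids and 477 to 4932 in KOCAG organoids, and without 1 library from 2 to 2468, 0 to 2322 and 2789 to 5177.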
